A study of Homo sapiens with 12 samples.

Results

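The 32 genes described here are targets and regulators of the cellular response to low oxygen that lie outside glycolysis. They were taken by symbol, and each symbol matched 1 of the 60649 gene rows in both count tables, so all 32 are accounted for. The genes fall by role into 7 oxygen sensing and HIF factors, 4 chromatin and transcription regulators, 3 secreted factors, 3 carbonic anhydrases and transporters, 6 collagen and matrix modifying enzymes, 4 mitochondrial and mitophagy genes and 5 others. RNA came from xenografts of Cal33, an established human line of squamous carcinoma of the head and neck, in 4 groups of 3 libraries that all share this line. In the first experiment, tumours treated with the TEAD inhibitor SW-682 (labelled smTEADi, a small molecule) were compared with tumours given Vehicle. In the second, tumours labelled pTEADi (DOX+) were compared with tumours labelled Control (DOX-), DOX being read here as doxycycline, the usual inducer of such constructs. Doxycycline was given on only 1 side of that comparison, so its own effect and that of the inhibitor cannot be told apart. The construct behind pTEADi, doses, times, animals and clones are not described in the labels, and the p-values below therefore measure only the spread between samples that may or may not come from separate animals.

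Cells read oxygen through prolyl hydroxylases of the EGLN family, which mark the alpha subunits HIF1A and EPAS1 (HIF-2 alpha) for destruction by the VHL ubiquitin ligase while oxygen is present. When oxygen falls, the alpha subunits persist, pair with ARNT and bind hypoxia response elements with the core ACGTG or GCGTG near genes for blood vessel growth, pH control, matrix building and mitochondrial turnover. This control acts mainly on the stability of the alpha proteins, so the amounts of their messenger RNAs are a poor guide to HIF activity. Head and neck squamous carcinomas are known for poorly oxygenated regions. TEAD factors, the DNA-binding partners of the co-activators YAP and TAZ, bind the element CATTCC.

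The libraries held 13576494 to 15433679 expected counts each, with 14553 to 14891 genes at 10 counts or above. Mitochondrially encoded genes took 3.64% to 5.99% of counts, and no library repeated another. The squamous markers were abundant in every library, with a summed level of 40120 to 76450 CPM (counts scaled to library size) over 8 genes. Marker lists of other cells were uneven: KDR, EMCN, COL3A1, AIF1, CD163, ADIPOQ and LEP had 0 counts in every library and PTPRC had 0 or 1, while COL1A1 had 1011 to 1764, VWF 182 to 870, FABP4 140 to 959, CFD 130 to 716 and CD68 71 to 503. Reads from the mouse host are not said to have been separated, and in bulk tumour RNA fewer cells of a type and less RNA per cell cannot be told apart. Levels below are CPM with TMM scaling, given for replicates 1, 2 and 3 in that order, and fold changes are log2 values of treated over control ± SE from edgeR's quasi-likelihood test, with n = 3 libraries per group. A gene is called changed at a Benjamini-Hochberg adjusted p under 0.05 over all genes tested.

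Promoter stretches are shown because the core letters of the hypoxia response element occurred in many members but not in all. The members were chosen as targets and regulators of this response, so their share is not independent of that choice. A symbol with several windows counted if any of them matched, and all symbols were not matched to the members for base content. Windows from 250 bases before to 50 after the start were found for 26 of the 32 members in RefSeq (GRCh38.p14). ACGTG, or its reverse complement CACGT, occurred in 16 of the 26 (61.5%) and in 24.9% of all 27305 symbols. GCGTG, or CACGC on the other strand, occurred in 14 (53.8%) and in 40.6% of all symbols. ARNT, EGLN3, SLC6A8 and P4HA2 held neither core in this window. The TEAD element CATTCC, or GGAATG on the other strand, was in 1 of the 26 (3.85%), P4HA2, and in 16.7% of all symbols. A match is a run of letters and not a bound site, and the palindrome CACGTG counts on both strands. Parts of 5 windows that lie before the start of the gene, outside annotated exons except for CA9, are given on the strand of the gene, 5′ to 3′, with matches to ACGTG and GCGTG on either strand in capitals. CA9 and ADM are among the genes that fell most with pTEADi, BNIP3 and AK4 also fell, and FAM162A rose. The CA9 site is cut to 30 bases because an exon of the opposite-strand gene ARHGEF39 covers it.
CA9, chr9:35673898-35673927, plus strand: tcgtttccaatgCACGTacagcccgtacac
ADM, chr11:10304878-10305072, plus strand: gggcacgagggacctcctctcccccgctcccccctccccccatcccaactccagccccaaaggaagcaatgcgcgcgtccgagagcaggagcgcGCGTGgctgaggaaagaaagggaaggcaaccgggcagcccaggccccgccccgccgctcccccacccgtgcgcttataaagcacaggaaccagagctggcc
BNIP3, chr10:131981968-131982173, minus strand: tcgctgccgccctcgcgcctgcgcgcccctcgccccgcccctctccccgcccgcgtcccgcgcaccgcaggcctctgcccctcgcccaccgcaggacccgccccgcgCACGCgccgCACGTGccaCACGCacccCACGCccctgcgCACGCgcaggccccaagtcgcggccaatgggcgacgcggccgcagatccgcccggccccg
AK4, chr1:65147302-65147548, plus strand: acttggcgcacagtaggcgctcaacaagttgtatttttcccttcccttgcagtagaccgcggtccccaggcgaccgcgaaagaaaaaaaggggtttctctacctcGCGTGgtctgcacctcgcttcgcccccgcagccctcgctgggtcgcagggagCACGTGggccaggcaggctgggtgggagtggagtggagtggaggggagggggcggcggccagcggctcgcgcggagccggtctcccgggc
FAM162A, chr3:122383932-122384160, plus strand: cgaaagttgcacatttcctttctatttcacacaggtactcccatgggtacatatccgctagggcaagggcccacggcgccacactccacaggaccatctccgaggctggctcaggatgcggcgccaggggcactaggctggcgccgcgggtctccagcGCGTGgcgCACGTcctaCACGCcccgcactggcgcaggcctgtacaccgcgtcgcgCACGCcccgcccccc
In BNIP3 the matches crowd into a short stretch, and FAM162A, which moved the other way, also holds both cores. Of the 12 matched members that fell with pTEADi, 7 held ACGTG, as did 9 of the 14 other matched members.

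With pTEADi, 17 of the 32 members fell and 2 rose, and with SW-682, 2 fell and 0 rose. Over all 14705 genes tested, 13.6% fell and 12.7% rose with pTEADi (26.3% changed), so the 17 lower members stand against a background of 13.6% and the 2 higher members against 12.7%. Over the 14829 genes tested for SW-682, 3.48% were lower and 2.02% higher (5.50% changed). The median log2 fold change of the members was -0.69 with pTEADi, beside -0.001 over all genes tested, and 0.12 with SW-682, beside 0.011. By DESeq2, 18 members fell and 2 rose with pTEADi, beside 12.8% and 12.6% of all genes. With SW-682, DESeq2 called 3 members lower (PLOD1, PLOD2 and LOXL2) and 2 higher (FAM162A and BNIP3L), beside 6.99% and 5.77% of all genes. By edgeR, 9 members had an unadjusted p under 0.05 for SW-682, beside 27.8% of all genes. All 3 pTEADi libraries lay below all 3 Control libraries for 18 members, beside 21.7% of all genes, and above them for 5, beside 20.3% (42.0% in either direction). The 3 smTEADi libraries lay below all Vehicle libraries for 2 members, beside 17.3% of all genes, and above them for 3, beside 15.7% (33.0% in either direction).

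**Figure D1:**
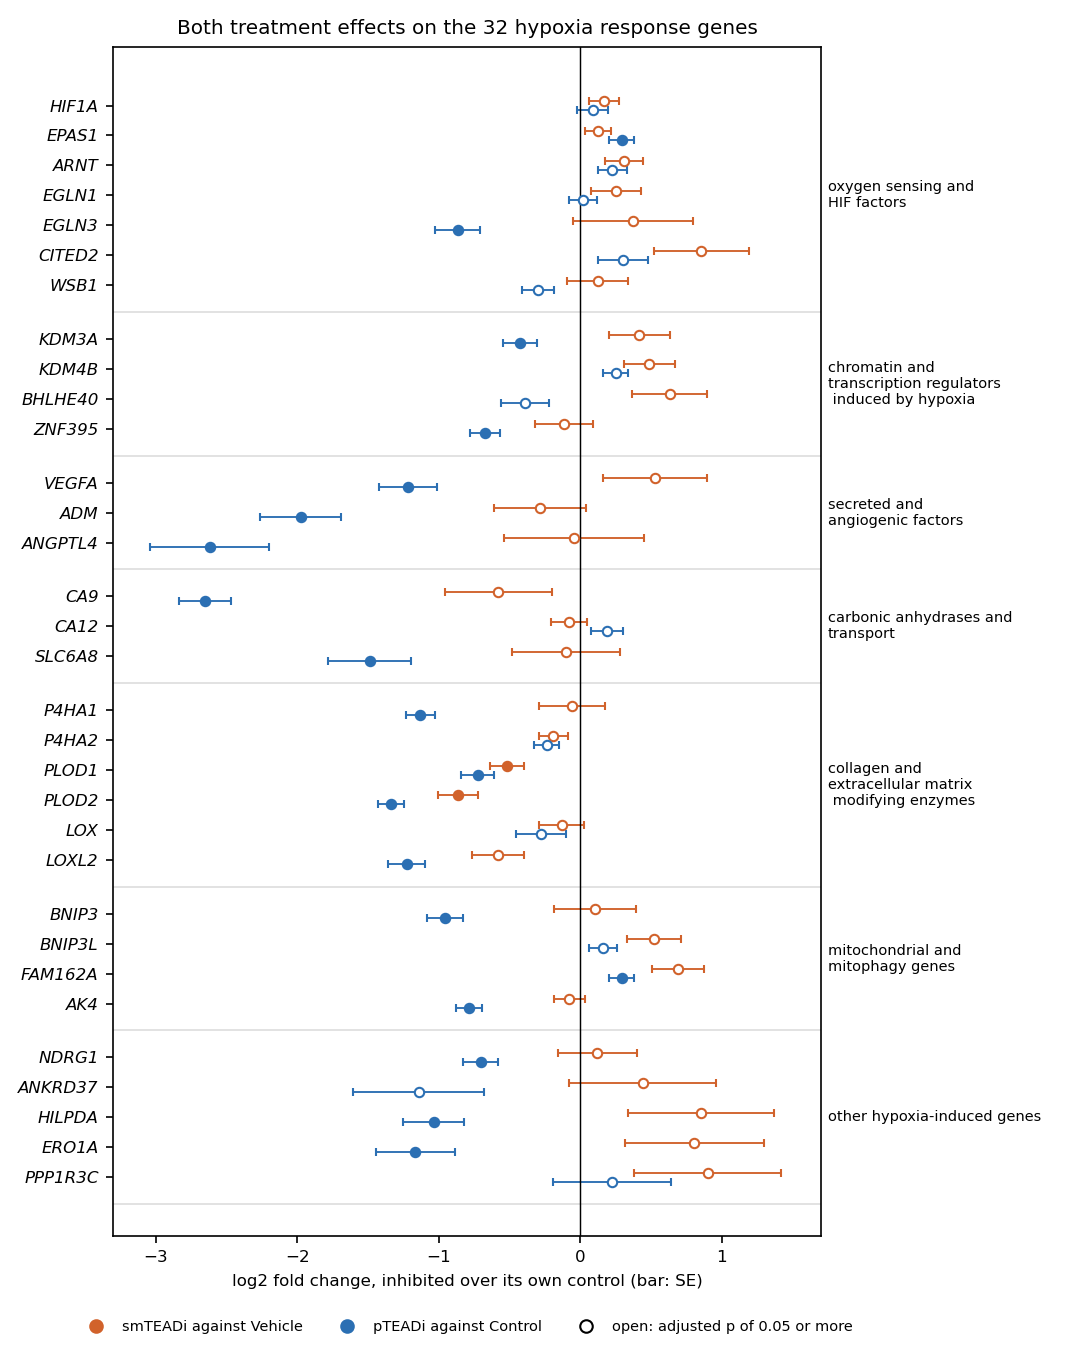
Log2 fold changes (x axis) of the 32 members ± SE for SW-682 over Vehicle and pTEADi over Control, by role; filled points passed an adjusted p of 0.05. The pTEADi estimates run from -2.65 (CA9) to 0.30 (CITED2), and those for SW-682 from -0.86 (PLOD2) to 0.90 (PPP1R3C).

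None of the HIF subunit transcripts was called lower in either comparison. HIF1A, the alpha subunit of HIF-1, stood at 125, 112 and 146 CPM in Control and at 124, 136 and 148 CPM in pTEADi. In the other experiment it stood at 197, 193 and 187 CPM in Vehicle and at 215, 194 and 238 CPM in smTEADi. The groups overlapped in both experiments, and neither fold change passed (0.09 ± 0.11, adjusted p = 0.592 with pTEADi, and 0.17 ± 0.10, adjusted p = 0.323 with SW-682). EPAS1, which encodes HIF-2 alpha, had 141, 136 and 161 CPM in Control and 179, 181 and 178 CPM in pTEADi, a rise of 0.29 ± 0.09 (adjusted p = 0.0275). The Vehicle libraries held 169.7, 187 and 184 CPM of EPAS1 and the smTEADi libraries 202, 188 and 201 CPM (0.12 ± 0.09, adjusted p = 0.416). The treated libraries lay above the controls in both experiments, by a small margin with SW-682. The EPAS1 call with pTEADi held only when Control 3 was the library left out. ARNT, the partner of both alpha subunits, had 23.7, 26.8 and 25.6 CPM in Control and 28.3, 31.1 and 29.7 CPM in pTEADi (0.23 ± 0.10, adjusted p = 0.126). In Vehicle it had 33.2, 32.7 and 26.3 CPM and in smTEADi 42.8, 38.1 and 33.3 CPM (0.31 ± 0.13, adjusted p = 0.170). Again the treated libraries lay above the controls in both experiments, without a call.

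Among the other members of the oxygen sensing group, EGLN3 fell with pTEADi. This prolyl hydroxylase, itself a HIF target, had 281, 301 and 177 CPM in Control and 135, 139.6 and 141 CPM in pTEADi, a fold change of -0.87 ± 0.16 (adjusted p = 0.00192). The 3 pTEADi libraries were nearly level and all lay below the lowest Control library. The call was lost when all 4 groups were fitted together (adjusted p = 0.110). With SW-682 the EGLN3 libraries spread widely, from 97.0 to 413 CPM around Vehicle values of 162, 279 and 179 CPM (0.37 ± 0.42, adjusted p = 0.598). EGLN1, the main oxygen sensor of the family, had fold changes of 0.02 ± 0.10 with pTEADi and 0.25 ± 0.18 with SW-682. CITED2, which competes with HIF for its co-activator, had values of 0.30 ± 0.18 and 0.86 ± 0.34, and WSB1, a ubiquitin ligase adaptor, of -0.30 ± 0.11 and 0.12 ± 0.22, in the same order; none of these passed. Of 11 further genes of the oxygen sensing machinery, 9 were tested and 0 passed in either comparison, with 0 at an unadjusted edgeR p under 0.05 and 0 by DESeq2. Over all genes, 26.3% passed by edgeR with pTEADi and 5.50% with SW-682. VHL, for example, averaged 19.2 CPM in Control, 17.2 in pTEADi, 20.01 in Vehicle and 20.2 in smTEADi, and HIF3A had 0 counts in every library.

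Of the 4 chromatin and transcription regulators, 2 fell with pTEADi. ZNF395, a transcription factor induced by hypoxia, had 129, 121 and 98.9 CPM in Control and 72.8, 78.0 and 68.0 CPM in pTEADi, a fold change of -0.67 ± 0.11 (adjusted p = 0.000805). KDM3A, an oxygen-dependent histone H3K9 demethylase, had 107, 112 and 79.0 CPM in Control and 69.3, 78.5 and 74.1 CPM in pTEADi (-0.43 ± 0.12, adjusted p = 0.0223). The ZNF395 groups were well apart, whereas Control 3 and pTEADi 2 nearly met for KDM3A, whose call was lost without Control 1, without any single pTEADi library or with all 4 groups in 1 fit (adjusted p = 0.142). With SW-682 their values were -0.12 ± 0.20 and 0.42 ± 0.22. KDM4B, another histone demethylase, had 0.25 ± 0.09 with pTEADi and 0.49 ± 0.18 with SW-682, and BHLHE40, a repressor of the clock and differentiation genes, had -0.39 ± 0.17 and 0.63 ± 0.27; none of these passed.

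All 3 secreted factors fell with pTEADi, with a median log2 fold change of -1.98. VEGFA, the main growth signal for endothelial cells, had 232, 365 and 174 CPM in Control and 107, 124 and 102 CPM in pTEADi, a 2.32-fold fall (-1.22 ± 0.21, adjusted p = 0.00131). ADM, the precursor of the vessel-dilating peptide adrenomedullin, had 212, 327 and 111 CPM in Control and 55.0, 60.4 and 49.8 CPM in pTEADi, a 3.93-fold fall (-1.98 ± 0.28, adjusted p = 0.000493). ANGPTL4, a secreted inhibitor of lipoprotein lipase, had 229, 436 and 83.6 CPM in Control and 43.4, 39.1 and 39.3 CPM in pTEADi, a 6.14-fold fall (-2.62 ± 0.42, adjusted p = 0.000971). The pTEADi libraries were close to each other for all 3 genes, while Control 2 was the highest and Control 3 the lowest Control library. Without Control 2 the log2 fold change of ANGPTL4 was -1.94, and without Control 3 it was -3.03.

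The same 3 genes moved in no single direction with SW-682. VEGFA had 149.5, 208 and 181 CPM in Vehicle and 421, 239.8 and 116 CPM in smTEADi (0.53 ± 0.36, adjusted p = 0.373). ADM had 151, 144 and 137 CPM in Vehicle and 150.4, 153 and 51.5 CPM in smTEADi (-0.29 ± 0.33, adjusted p = 0.600). ANGPTL4 had 59.6, 97.7 and 73.0 CPM in Vehicle and 124, 79.8 and 19.3 CPM in smTEADi (-0.04 ± 0.50, adjusted p = 0.963). For each gene smTEADi 3 lay below every Vehicle library, while smTEADi 1 lay above them for VEGFA and ANGPTL4.

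Of 9 other VEGF family and receptor genes, 5 were tested. With pTEADi 3 fell, beside 13.6% of all genes, and with SW-682 2 fell, beside 3.48%. VEGFC, the lymphatic vessel growth factor, fell in both comparisons (-1.49 ± 0.20, adjusted p = 0.000334 with pTEADi, and -0.88 ± 0.20, adjusted p = 0.0437 with SW-682). NRP2, a co-receptor for VEGFC, also fell in both (-0.995 ± 0.16, adjusted p = 0.000804, and -1.18 ± 0.25, adjusted p = 0.0392, in the same order). PGF, the placental growth factor, fell with pTEADi (-1.36 ± 0.25, adjusted p = 0.00211). FLT1 had 0 to 4 counts in every library and KDR had 0. VWF, an endothelial marker, rose with pTEADi (1.19 ± 0.19, adjusted p = 0.000862). With SW-682, VWF had 15.7, 32.9 and 16.2 CPM in Vehicle and 64.1, 35.7 and 42.8 CPM in smTEADi. Its fold change there was 1.14, without a call by edgeR (adjusted p = 0.0561), and DESeq2 called VWF higher. It made up most of the summed level of 10 endothelial markers. Only ENG (5 to 26 counts) was also tested, and it was not called. PECAM1, CDH5, TEK and TIE1 had 0 to 4 counts per library, so the sum largely repeats VWF. That sum was 14.5 to 23.3 CPM in Control and 32.6 to 44.6 CPM in pTEADi. The same sum was 16.5 to 34.5 CPM in Vehicle and 37.3 to 65.7 CPM in smTEADi, and its part in the values of VEGFA and the other secreted factors was not tested.

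**Figure D2:**
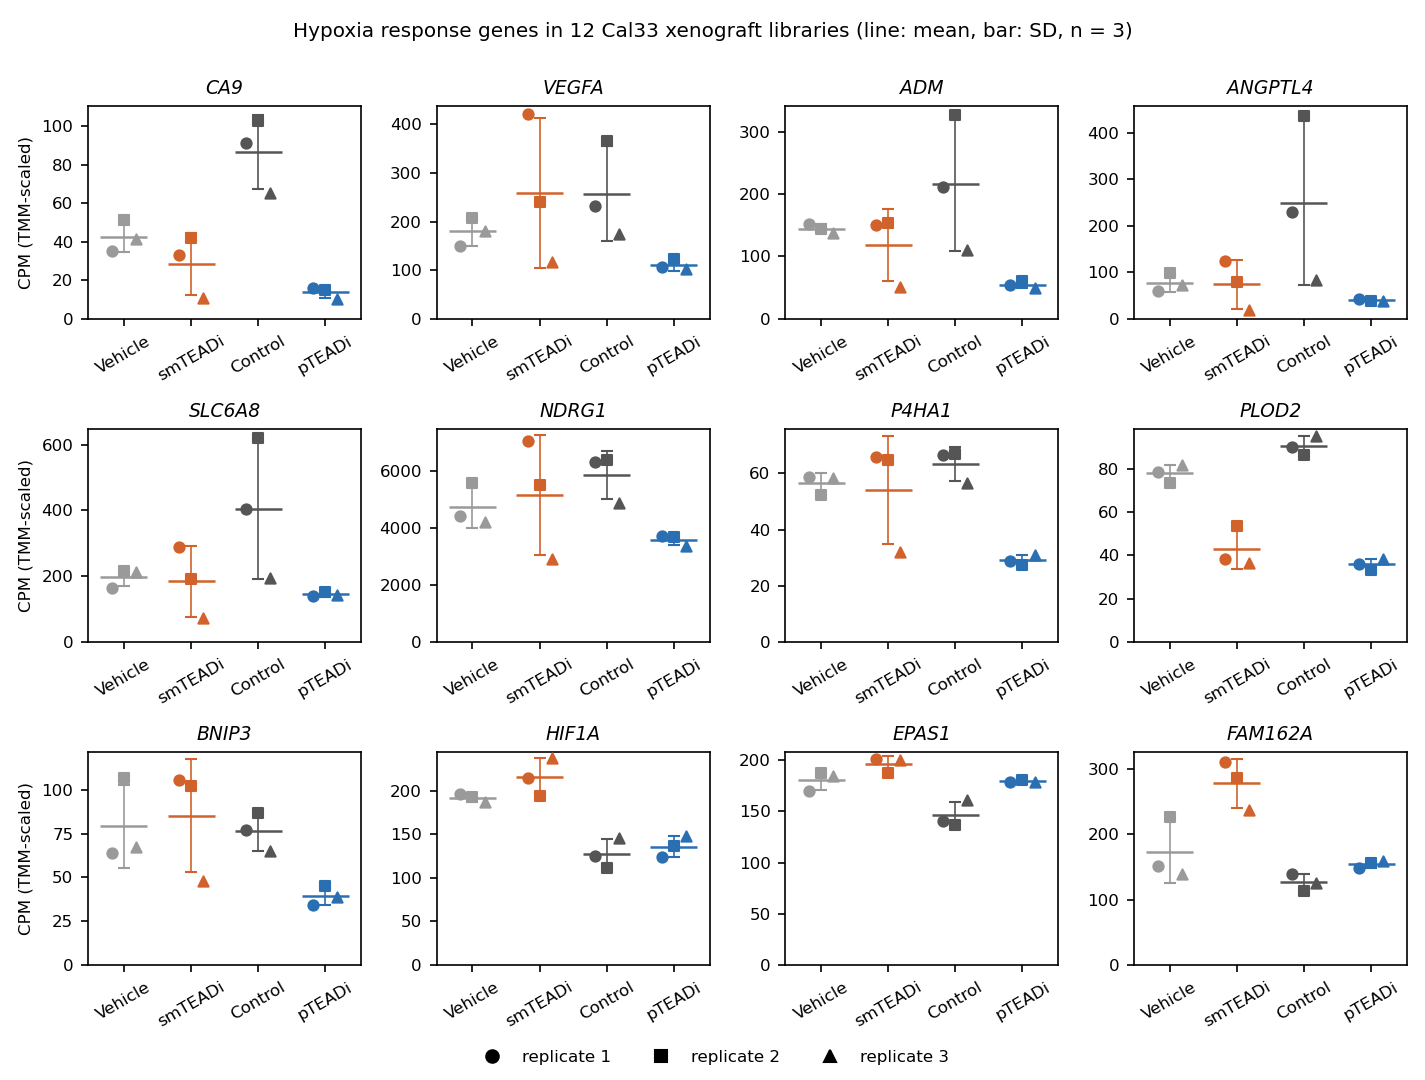
CPM in each of the 12 libraries for 12 members (points), with the group mean and SD, on the axis of each panel. The pTEADi points sit below Control for VEGFA, ADM, ANGPTL4 and CA9, and tightly together for the first 3. For CA9 the ratio of the highest to the lowest library was 1.537 in pTEADi and 1.575 in Control. The smTEADi points spread to either side of Vehicle for VEGFA (116 to 421 CPM).

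CA9, the cell surface carbonic anhydrase used as a marker of hypoxic tumour areas, had the largest fall of the members with pTEADi by point estimate, just beyond that of ANGPTL4. It had 91.1, 103 and 65.2 CPM in Control and 16.0, 14.9 and 10.4 CPM in pTEADi, a 6.29-fold fall (-2.65 ± 0.18, adjusted p = 9.84e-06). In Vehicle it had 35.4, 51.3 and 41.4 CPM and in smTEADi 32.9, 41.9 and 10.8 CPM (-0.58 ± 0.38, adjusted p = 0.346). The pTEADi groups stood far apart, whereas only smTEADi 3 lay well below Vehicle. ARHGEF39 overlaps CA9 on the opposite strand by 571 bases of exon and itself fell with pTEADi (-1.17 ± 0.14, adjusted p = 0.000186) and with SW-682 (-1.09 ± 0.24, adjusted p = 0.0420). The counting strand is not stated, so reads in the overlap cannot be assigned with certainty. SLC6A8, the creatine transporter, had 403, 620.0 and 194 CPM in Control and 139, 153 and 143 CPM in pTEADi, a 2.80-fold fall (-1.49 ± 0.29, adjusted p = 0.00328). All pTEADi libraries lay below Control, the highest of which, Control 2, was 620.0 CPM. In Vehicle SLC6A8 had 164, 217 and 212 CPM and in smTEADi 289.5, 191 and 72.6 CPM (-0.10 ± 0.38). CA12, a second surface carbonic anhydrase, did not follow CA9: its fold changes were 0.19 ± 0.12 (adjusted p = 0.258) with pTEADi and -0.08 ± 0.13 with SW-682.

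The 6 collagen and matrix modifying enzymes held both genes that fell in the 2 comparisons. PLOD2, the lysyl hydroxylase of collagen telopeptides, had 90.2, 86.3 and 95.2 CPM in Control and 36.1, 33.0 and 38.4 CPM in pTEADi, a 2.53-fold fall (-1.34 ± 0.09, adjusted p = 9.84e-06). In Vehicle it had 78.4, 73.5 and 81.5 CPM and in smTEADi 38.2, 53.3 and 36.6 CPM, a 1.82-fold fall (-0.86 ± 0.14, adjusted p = 0.0365). Treated and control libraries were apart in both experiments. PLOD1, which hydroxylates lysines along the collagen helix, had 199, 258 and 195 CPM in Control and 142, 134 and 120.2 CPM in pTEADi (-0.72 ± 0.12, adjusted p = 0.000941). In Vehicle it had 104, 114 and 133 CPM and in smTEADi 78.1, 91.9 and 75.01 CPM, a 1.43-fold fall (-0.52 ± 0.12, adjusted p = 0.0454). Its groups too were apart in both experiments. The SW-682 calls were close to the threshold: PLOD1 kept its call only when Vehicle 2 was left out, and PLOD2 lost it without Vehicle 1, Vehicle 3 or smTEADi 3.

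LOXL2 and P4HA1 completed the enzymes that fell with pTEADi. LOXL2, a lysyl oxidase that crosslinks collagen, had 106, 104 and 88.8 CPM in Control and 48.8, 33.9 and 45.0 CPM in pTEADi, a 2.34-fold fall (-1.23 ± 0.13, adjusted p = 7.65e-05). With SW-682 it had 53.1, 66.0 and 62.6 CPM in Vehicle and 36.4, 53.5 and 31.4 CPM in smTEADi (-0.58 ± 0.18, adjusted p = 0.0842). Here smTEADi 2 just exceeded Vehicle 1, and DESeq2 called LOXL2 lower (adjusted p = 0.0265). P4HA1, a catalytic subunit of collagen prolyl hydroxylase, had 66.7, 67.1 and 56.5 CPM in Control and 28.8, 27.3 and 31.0 CPM in pTEADi, a 2.19-fold fall (-1.13 ± 0.10, adjusted p = 3.60e-05). It had 58.7, 52.2 and 58.5 CPM in Vehicle and 65.9, 64.8 and 31.9 CPM in smTEADi (-0.06 ± 0.23). Its sister subunit P4HA2 (-0.24 ± 0.09 with pTEADi and -0.19 ± 0.10 with SW-682) and the lysyl oxidase LOX (-0.28 ± 0.18 and -0.13 ± 0.16) did not pass. The point estimates of all 6 enzymes were negative in both comparisons, with medians of -0.93 for pTEADi and -0.35 for SW-682. Among fibroblast markers, COL1A2 had 0 to 10 counts per library and COL1A1 had 1011 to 1764, with fold changes for COL1A1 of 0.10 ± 0.12 with pTEADi and 0.15 ± 0.12 with SW-682. FAP, at 9 to 93 counts, fell with pTEADi (-0.92 ± 0.25, adjusted p = 0.0173). The summed level of the 8 fibroblast markers was 101 to 119 CPM in Control, 99.7 to 138 in pTEADi, 76.8 to 97.2 in Vehicle and 85.5 to 91.6 in smTEADi. COL1A1 made up most of this sum, which largely repeats that gene. With SW-682, 4 of the markers were tested and 0 called, with 2 positive and 2 negative fold changes. FAP had 4.2, 4.3 and 3.6 CPM in Vehicle and 0.66, 2.5 and 2.0 CPM in smTEADi. LUM, at 1 to 31 counts, had 2.1, 1.7 and 2.0 CPM and 0.07, 1.3 and 1.1 CPM. DESeq2 called 1 of the 4 lower, beside 6.99% of all genes. The part of these markers in the values of the enzymes was not tested.

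The mitochondrial genes split. BNIP3, a receptor for mitophagy, had 77.2, 86.9 and 64.9 CPM in Control and 34.1, 45.2 and 39.0 CPM in pTEADi (-0.95 ± 0.13, adjusted p = 0.000312). AK4, a mitochondrial adenylate kinase, had 83.4, 92.4 and 88.9 CPM in Control and 48.0, 50.4 and 55.1 CPM in pTEADi (-0.79 ± 0.09, adjusted p = 0.000126). FAM162A, a mitochondrial protein linked to cell death in hypoxia, instead had 139, 114 and 126 CPM in Control and 148, 156 and 159.8 CPM in pTEADi, a rise of 0.29 ± 0.09 (adjusted p = 0.0343). None of the 3 overlapped between pTEADi and Control, and the FAM162A call was lost without Control 2, without any single pTEADi library or with all 4 groups in 1 fit (adjusted p = 0.200). In the SW-682 experiment BNIP3 had 63.7, 107 and 67.3 CPM in Vehicle and 106, 102 and 47.9 CPM in smTEADi (0.10 ± 0.29). AK4 had 107, 104 and 106 CPM in Vehicle and 109.6, 105 and 86.0 CPM in smTEADi (-0.08 ± 0.11). FAM162A had 152, 226 and 139.6 CPM in Vehicle and 311, 286 and 237 CPM in smTEADi (0.69 ± 0.18, adjusted p = 0.0563). All smTEADi libraries thus lay above Vehicle for FAM162A, and DESeq2 called it higher (adjusted p = 0.00319). BNIP3L, the paralog of BNIP3, had 0.16 ± 0.10 with pTEADi and 0.52 ± 0.19 (adjusted p = 0.118) with SW-682, where DESeq2 called it higher (adjusted p = 0.0482). RSEM gave FAM162A fractional counts in all 12 libraries, so some of its reads were shared with other genes. Fractional counts also occurred in 11 libraries each for CA9, BHLHE40 and ANKRD37 and in 9 for AK4. They occurred in 6 for BNIP3, in 4 each for VEGFA and LOXL2, and in 1 for HILPDA.

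Of the other hypoxia-induced genes, 3 of 5 fell with pTEADi. NDRG1, a stress-responsive differentiation gene, was the most abundant member per length, at 1929 CPM per kb of transcript in Control against 145 for ADM, the next. It had 6283, 6359 and 4861 CPM in Control and 3720, 3675 and 3360 CPM in pTEADi (-0.70 ± 0.12, adjusted p = 0.00169). In Vehicle it had 4403, 5576 and 4197 CPM and in smTEADi 7028, 5504 and 2888 CPM (0.12 ± 0.28). The smTEADi libraries of NDRG1 thus spanned a wider range than the Vehicle libraries. HILPDA, a lipid droplet protein, had 33.5, 44.7 and 21.0 CPM in Control and 14.9, 16.0 and 17.5 CPM in pTEADi (-1.03 ± 0.22, adjusted p = 0.00449), a call lost when all 4 groups were fitted together (adjusted p = 0.135). ERO1A, an oxidase for disulfide bonds in the endoplasmic reticulum, had 196, 301 and 113 CPM in Control and 70.0, 85.2 and 117 CPM in pTEADi (-1.17 ± 0.28, adjusted p = 0.00967). ERO1A was the only called member whose groups overlapped, since pTEADi 3 exceeded Control 3, and its call was lost without pTEADi 1, without pTEADi 2 or with all 4 groups in 1 fit (adjusted p = 0.0953).

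With SW-682, HILPDA, ERO1A and ANKRD37 were among the members whose libraries spread most widely. HILPDA had 28.9, 36.6 and 22.6 CPM in Vehicle and 101, 42.6 and 15.6 CPM in smTEADi (0.85 ± 0.51, adjusted p = 0.309). ERO1A had 177, 227 and 198 CPM in Vehicle and 620.0, 336 and 96.5 CPM in smTEADi (0.81 ± 0.49, adjusted p = 0.315). In both genes smTEADi 1 was far above and smTEADi 3 below every Vehicle library. ANKRD37, a small ankyrin-repeat target of HIF-1, had 5.24, 10.6 and 2.03 CPM in Control and 3.01, 3.11 and 1.94 CPM in pTEADi (-1.14 ± 0.46, adjusted p = 0.0902). Its Vehicle values were 4.81, 4.44 and 5.90 CPM and its smTEADi values 10.3, 8.74 and 1.49 CPM (0.44 ± 0.52). The groups overlapped both times, counts per library were only 21 to 147, and UFSP2 overlaps the gene on the opposite strand. PPP1R3C, a glycogen-targeting subunit of a protein phosphatase, was the least abundant member per length at 0.535 CPM per kb in Control, with 13 to 63 counts per library, and did not pass (0.23 ± 0.41 with pTEADi and 0.90 ± 0.52 with SW-682).

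The members differed in a common order across the 3 smTEADi libraries. Expression in smTEADi 1 exceeded that in smTEADi 3 for 30 of 32 members, with a median ratio of 2.02 and a range of 0.901 to 6.92, and smTEADi 2 lay between them for 23. Among the 6 libraries of that experiment, smTEADi 1 was the highest for 22 members and smTEADi 3 the lowest for 21, where over all genes tested these libraries took those places for 31.2% and 11.1%. Over all genes smTEADi 1 was also the lowest of the 6 for 29.4%, so it stood apart in both directions outside the members. It was the lowest for 0 members. The median ratio of the highest to the lowest library was 2.02 in smTEADi, 1.32 in Vehicle, 1.33 in Control and 1.17 in pTEADi. For the 17 members that fell with pTEADi, smTEADi 3 lay below all Vehicle libraries in 17, and smTEADi 1 lay above them in 11 and below them in 4. For those 11 genes the smTEADi mean averages libraries on opposite sides of Vehicle. Leaving out smTEADi 1 moved the median log2 fold change of the members from 0.12 to -0.07, and leaving out smTEADi 3 moved it to 0.39. Control libraries also differed: Control 2 was the highest Control library for 20 of 32 members. Among the 6 libraries of its experiment, it was the highest for 17 members and the lowest for 4, beside 23.4% and 22.0% of all genes. The other counts of libraries set against each other in this paragraph have no share over all genes beside them.

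Depth did not follow this order, with 14371356, 15433679 and 14045575 counts in smTEADi 1, 2 and 3. The share of mitochondrially encoded genes ran in the reverse order, at 4.54%, 4.90% and 5.64%, and in Control 1, 2 and 3 it was 3.96%, 3.64% and 4.5%. The summed level of 8 leukocyte markers followed the order of the members, at 44.4, 31.3 and 13.9 CPM in smTEADi 1, 2 and 3, against 19.2 to 28.5 CPM in Vehicle. In the other experiment that sum was 33.0, 44.9 and 23.96 CPM in Control 1, 2 and 3 and 19.8 to 24.8 CPM in pTEADi. CD68, at 71 to 503 counts, carried much of the sum and set its order, with 37.1, 21.6 and 5.04 CPM in smTEADi 1, 2 and 3. The other counted markers did not follow that order. In the same libraries ITGAM (50 to 87 counts) had 3.7, 5.7 and 5.1 CPM. CSF1R (13 to 82 counts) had 1.9, 2.1 and 1.9 CPM, and CD14 (16 to 66 counts) had 1.2, 1.8 and 1.8 CPM. LYZ had 0 to 8 counts, PTPRC had 0 or 1, and AIF1 and CD163 had 0. Of 4 leukocyte markers tested with pTEADi, 1 was called, beside 26.3% of all genes: CSF1R fell (-1.39 ± 0.41, adjusted p = 0.0254). Mean levels in Control and pTEADi were 21.6 and 12.6 CPM for CD68, 4.2 and 4.1 for CD14, and 4.2 and 4.6 for ITGAM. The part of these markers and of the mitochondrial share in the order of the libraries was not tested.

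**Figure D3:**
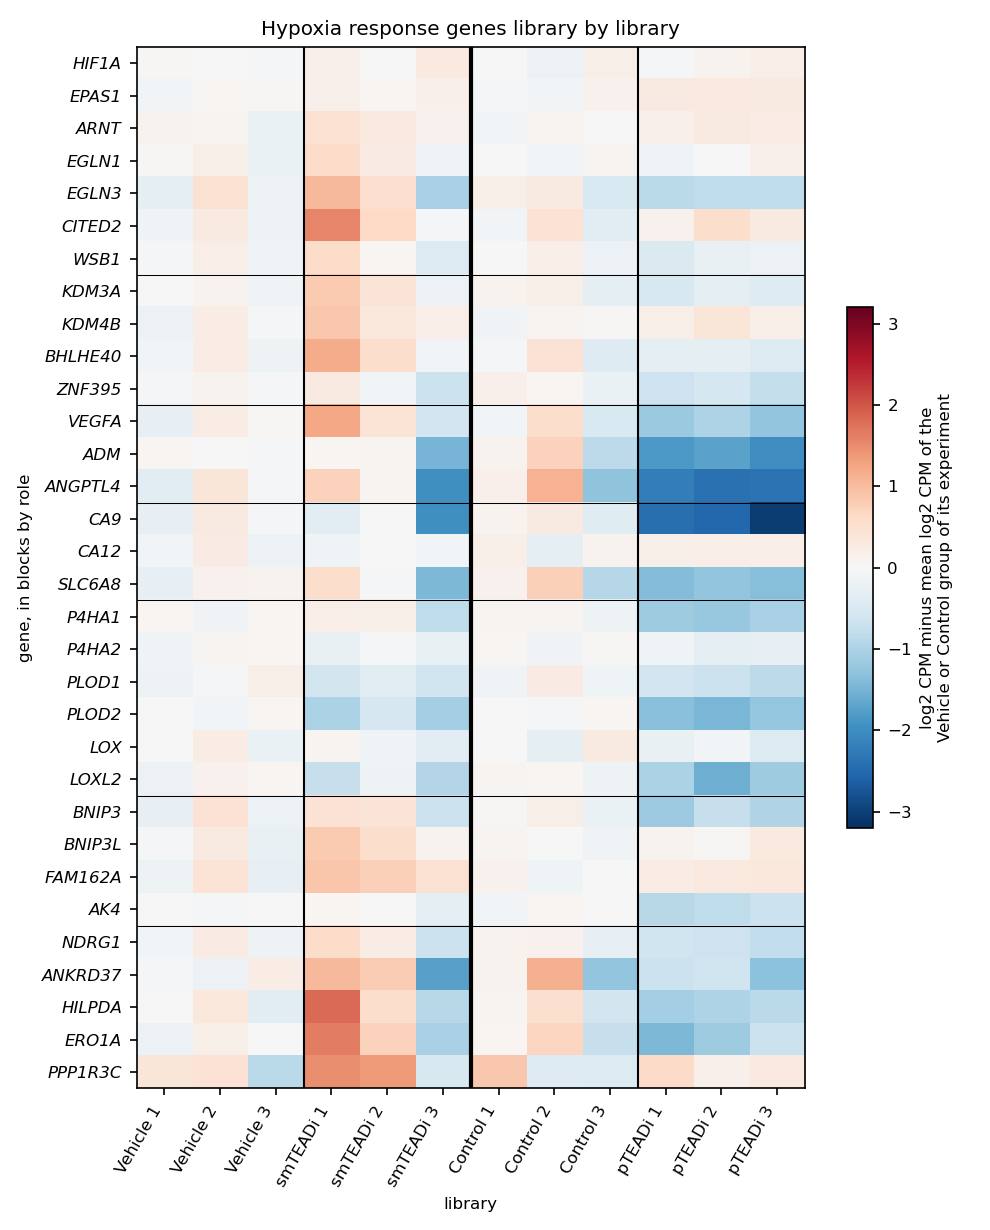
Heat map of log2 CPM minus the mean log2 CPM of the Vehicle or Control group of the same experiment (colour) for the 32 members (rows, in blocks by role) in the 12 libraries (columns). Red (higher) prevails in the smTEADi 1 column and blue (lower) in the smTEADi 3 column. Of the 6 libraries, smTEADi 1 was the highest for 22 members and smTEADi 3 the lowest for 21, beside 31.2% and 11.1% of all genes.

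Other HIF target genes showed the same library order. The mean log2(CPM + 1) of the 32 members was 6.97, 6.71 and 5.92 in smTEADi 1, 2 and 3, beside 6.39, 6.65 and 6.38 in Vehicle. For 14 glycolytic HIF targets it was 7.51, 7.33 and 6.67 in smTEADi and 7.12, 7.36 and 7.21 in Vehicle. In the other experiment the members averaged 6.63, 6.79 and 6.32 in Control and 5.948, 5.996 and 5.962 in pTEADi. The 3 pTEADi libraries were thus nearly level and lay below every Control library.

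Glycolytic HIF targets fell with pTEADi in 12 of 13 genes tested, beside 13.6% of all genes, with a median of -0.51. Among them were the enolase ENO2 (-2.26 ± 0.22, adjusted p = 4.55e-05), the glycolytic activator PFKFB3 (-1.22 ± 0.15) and lactate dehydrogenase LDHA (-0.73 ± 0.12). Of 20 further HIF targets, 7 fell and 3 rose with pTEADi, beside 13.6% and 12.7% of all genes, with a median of -0.16. The 3 that rose are near that share. Those that fell included DDIT4, an inhibitor of mTORC1 (-1.74 ± 0.17, adjusted p = 5.27e-05) and the secreted glycoprotein STC2 (-2.28 ± 0.40, adjusted p = 0.00154). EFNA3, an ephrin ligand, rose (0.71 ± 0.10, adjusted p = 0.000349). With SW-682, 0 of the 13 and 0 of the 20 passed by edgeR, beside 5.50% of all genes. At an unadjusted edgeR p under 0.05 were 1 and 8, beside 27.8% of all genes. DESeq2 called 1 of the 13 lower and 2 of the 20 higher, beside 6.99% and 5.77% of all genes.

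**Figure D4:**
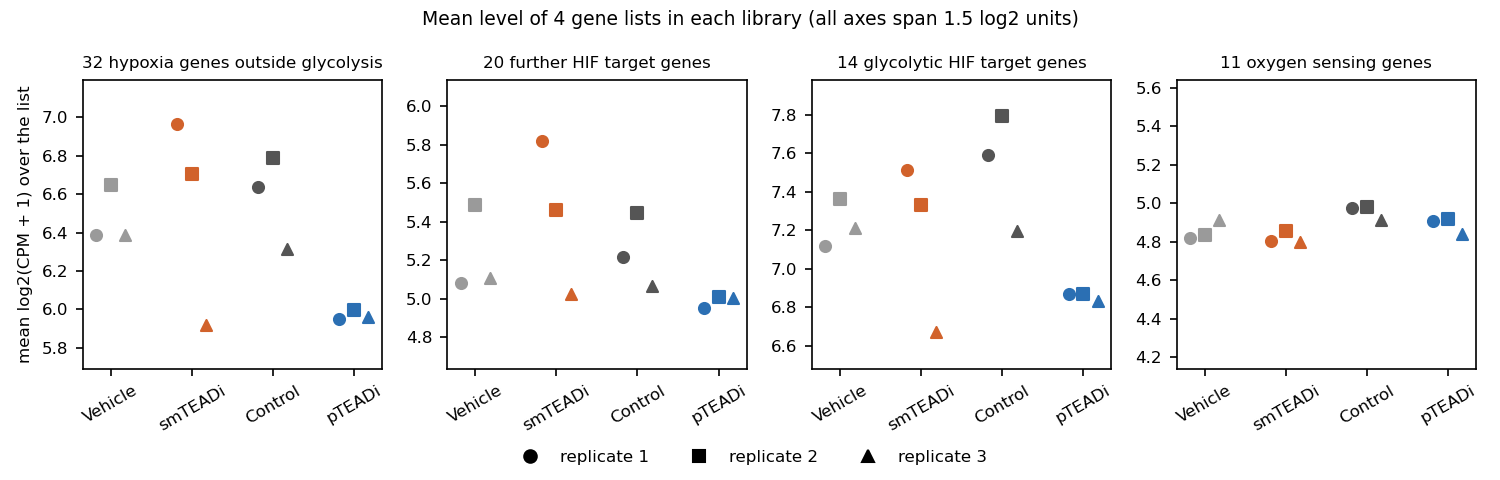
Mean log2(CPM + 1) in each of the 12 libraries for the 32 members and 3 other lists. The lists group genes by function and were chosen with earlier results of these data known. The pTEADi points of the members (5.948 to 5.996) lie below all Control points (6.32 to 6.79), the smTEADi points run from 5.92 to 6.97, and the oxygen sensing machinery stays between 4.80 and 4.98.

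The 2 treatment effects were compared in 1 fit of all 12 libraries, as the pTEADi effect minus the SW-682 effect. The experiments had separate control groups, and doxycycline was given on only 1 side of the pTEADi comparison. These parts cannot be told apart from the inhibitors. Mean levels in Control and Vehicle were 249.5 and 76.8 CPM for ANGPTL4, 86.3 and 42.7 for CA9, and 203.5 and 200.7 for ERO1A. The difference between the effects was negative for 30 of 32 members, with a median of -0.66 beside 0.011 over all genes tested. No member passed by edgeR: 0 of 32 were called, where 0.0129% of the 15460 genes tested were, and 17 members had an unadjusted p under 0.05, beside 7.13% of all genes. The largest differences were -2.58 ± 0.78 for ANGPTL4 (adjusted p = 0.503), -2.07 ± 0.49 for CA9 (adjusted p = 0.335) and -1.97 ± 0.67 for ERO1A. They depended on single libraries: ANGPTL4 was at -1.90 without Control 2, and ERO1A was at -1.28 without smTEADi 1. AK4 had the smallest adjusted p of the members (-0.71 ± 0.14, adjusted p = 0.217), and DESeq2 called it alone among the members (adjusted p = 0.00362), where it called 0.110% of all genes lower. Without smTEADi 3, edgeR called 4 members lower, beside 15 of the 15809 genes tested. They were CA9 (adjusted p = 0.00531), P4HA1 (adjusted p = 0.00480), AK4 (adjusted p = 0.0236) and VEGFA (adjusted p = 0.0451). Leaving out any other single library gave no called member.

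By point estimate, 12 members were lower in both comparisons, 9 higher in both, 10 lower with pTEADi and higher with SW-682, and 1, CA12, the reverse. Across the 32 members the 2 log2 fold changes had a Pearson r of 0.465, given as a description of genes that share libraries. For the 2 genes called lower in both, PLOD2 and PLOD1, the differences between the effects were -0.47 ± 0.18 and -0.20 ± 0.18. FAM162A, ARNT and EPAS1 lay above 0 in both, with differences of -0.40 ± 0.22, -0.08 ± 0.16 and 0.17 ± 0.12.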

How the data were processed

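Poly-T selected RNA from 12 Cal33 xenograft tumour samples was sequenced from both ends. The authors' alignment was to GRCh38 (hg38) with STAR 2.7.9a and Gencode 38, per the labels and the submitters' processing notes. The deposited values are RSEM 1.3.1 expected counts per gene, unscaled, in 1 table per experiment. Between 6.77% and 7.27% of values per library were not whole, and the counting strand and any separation of mouse reads are not given in the sources used here.

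Samples were grouped by their labels, 3 per group. Expected counts were rounded and tested two-sided in R 4.3.3 with edgeR 4.0.16 (filterByExpr at a minimum count of 10, TMM, quasi-likelihood, Benjamini-Hochberg adjusted p under 0.05 over all genes), each treatment against its own control, and the difference of effects in 1 fit. SE is the fold change divided by the square root of F. The biological coefficient of variation was 0.157 for SW-682 and 0.118 for pTEADi. Per-kb levels use canonical transcript lengths from Gencode 44 on GRCh38, which also gave gene names. The test was run on simulated data with known changes.

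The members and lists were chosen with earlier results of these data known. Values per library are given for members past the threshold in any comparison, for HIF1A, EPAS1 and ARNT, and for CA9, VEGFA, ADM, NDRG1, BNIP3 and ANKRD37. Of other lists, up to 6 called genes with the smallest p could be named. VHL, HIF3A, FLT1, KDR and the cell markers were named outside this rule, after their values were seen. Alternatives were RLE scaling, no count filter, DESeq2 1.42.0, a replicate block, unrounded counts, all 4 groups in 1 fit, and leaving out each library.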

Additional observations from a re-analysis of the deposited data

How the results depend on the processing

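With SW-682, the count of members called higher was 0 and rose to 5 without the count filter, 2 with DESeq2 and 3 with all 4 groups in 1 fit. Over all genes tested, the count called higher was 300 of 14829. It rose to 994 of 26309, 856 of 14829 and 996 of 15460 in the same settings. The count called lower, 2, became 0 with the replicate block, under which 0 genes of any kind passed, PLOD1 had an adjusted p of 0.0945 and PLOD2 of 0.0828. Same-numbered libraries did not deviate together (r of -0.109, -0.078 and 0.115 for smTEADi and Vehicle, and 0.002, -0.066 and -0.027 for pTEADi and Control), 2 of 6 and 0 of 6 correlated best with their own number, and the numbers were not taken as pairs. The block left the pTEADi counts at 17 lower and 2 higher and the difference at 0. With pTEADi, all 4 groups in 1 fit gave 1 member higher and 13 lower, losing EGLN3, KDM3A, FAM162A, HILPDA and ERO1A, and no filter gave 20 lower. Over all genes, that fit called 1667 of 15460 higher and 1705 lower, and no filter gave 2225 of 25746 lower. For the difference, no filter gave 16 members lower, beside 221 of 28259 genes, and DESeq2 gave 1, beside 17 of 15460. The cause was not tested. Without the filter the smallest adjusted p of the members by edgeR was 3.22e-125 for pTEADi and 2.23e-50 for the difference. With it these were 9.84e-06 and 0.217. The ANGPTL4 difference itself hardly moved (-2.57 without the filter, -2.58 with it), so counts without the filter need caution. Over all genes, SW-682 calls numbered 816, but 0 without Vehicle 1, Vehicle 3 or smTEADi 3, 1893 with DESeq2 and 2101 without the filter. For the difference, 2 genes passed, beside 377 without the filter and 43 with DESeq2.

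Leaving out each library gave, for SW-682, 0 to 1 members higher, 0 to 2 lower and a median of -0.066 to 0.385. Over all genes these refits called 0 to 801 higher and 0 to 821 lower, of 15140 to 15182 tested. For pTEADi it gave 0 to 2 higher, 15 to 20 lower and a median of -0.776 to -0.511. Over all genes the pTEADi refits called 1171 to 2150 higher and 1154 to 2229 lower, of 15036 to 15092 tested. For the difference, leaving out each library gave 0 to 4 members lower, beside 0 to 15 of all genes, and a median of -0.823 to -0.544. Signs turned over these refits for SW-682 in EGLN3 (-0.086 to 0.763), WSB1 (-0.168 to 0.326), ZNF395 (-0.364 to 0.096), VEGFA (-0.013 to 0.869), ADM (-0.515 to 0.066), ANGPTL4 (-0.628 to 0.402), CA12 (-0.172 to 0.066), SLC6A8 (-0.583 to 0.271), P4HA1 (-0.222 to 0.203), BNIP3 (-0.080 to 0.381), AK4 (-0.148 to 0.014), NDRG1 (-0.171 to 0.399) and HILPDA (-0.008 to 1.277). They also turned for EGLN1 with pTEADi (-0.052 to 0.085) and, for the difference, in HIF1A (-0.162 to 0.032), ARNT (-0.162 to 0.021), P4HA2 (-0.098 to 0.023) and LOX (-0.272 to 0.021). None of these was called. With pTEADi, BHLHE40 and WSB1 passed without Control 3, ANKRD37 passed without Control 3 and with DESeq2 (adjusted p = 0.0338), and CITED2, KDM4B and P4HA2 passed without Control 2. Counts of 13 to 63 for PPP1R3C and 21 to 147 for ANKRD37 limit those genes.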
